A study of Homo sapiens with 6 samples.

Results

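F-box proteins are the substrate-reading subunits of SCF ubiquitin ligases. In these complexes the cullin scaffold CUL1 holds a RING protein at one end and the adaptor SKP1 at the other, and SKP1 docks 1 F-box protein at a time through its F-box. The rest of the F-box protein binds the substrate, through WD40 repeats in the FBXW class, leucine-rich repeats in the FBXL class and other domains in the FBXO class, so the set of F-box proteins in a cell sets which proteins the ligase can mark for degradation. The genes described here were chosen by name. They are those whose symbol in the platform annotation begins with FBXO, FBXL or FBXW and a number, together with SKP1, SKP2 (an FBXL protein under an older name) and CUL1. This gave 61 genes with 109 probes, out of 18665 genes with a symbol on the array. Of these, 44 genes with 61 probes were detected above the negative-control beads (detection p under 0.05) on at least 3 of 6 arrays and could be tested, while 17 were too dim.

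The cells were A549, an established line from a human lung adenocarcinoma, and their RNA was hybridised to Illumina Human-6 bead arrays. The 3 control arrays came from A549 cells listed as control, with no vehicle given in the sources used here, and the 3 DAMTC arrays from A549 cells exposed to the compound DAMTC at 160 µg/ml for 24 h. The triplicates are called biological without separate cultures being named, so the tests measure the spread between these arrays, which may be technical in part. Both groups lay on 1 BeadChip, controls in the first positions and DAMTC in the last, so that position and treatment cannot be told apart. Between 16329 and 17835 probes were detected per array, with mean bead intensities of 528.7 to 673.4. Of 8 markers of the line, 7 were detected on all 6 arrays (CDH1 among them fell, by 1.64 on the log2 scale, adjusted p = 0.0239) and AKR1C1 on none; none of 4 lung lineage markers was detected on 3 arrays or more. Of 9 markers of leukocytes, endothelium and fibroblasts only CD14 and PECAM1 were detected on that many. The summed level of the 16 probes of the last 9 ran from 604.3 to 752.7 over control arrays and from 565.7 to 641.3 over DAMTC arrays. PTPRC, CD3E, VWF, CDH5 and COL1A2 were detected on no array. Undetected probes entered the sum at their background level, so it is in part background. CD14 was lower and PECAM1 higher on every DAMTC array, and the part of such markers in the results was not tested. Control replicate 1 stood apart from the other controls on the second principal component (56.52 against -35.97 and -19.49), and calls of the named genes that turn on it are given with and without it.

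Values are normalized bead intensities on the log2 scale, so a difference of 1 is a 2-fold change. They compare arrays for a given probe and not a gene with another gene. DAMTC was set against control with limma over all 10779 tested genes, and a gene is said to have changed where the Benjamini-Hochberg adjusted p over all of them was under 0.05. In bulk RNA, fewer cells with a transcript and less transcript per cell cannot be told apart.

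Of the 44 F-box and SCF core genes tested, 14 changed (31.8%, where 24.9% of all tested genes did). The 9 that were higher with DAMTC made up 20.5% of the genes, against 12.2% of all tested genes, and the 5 that were lower made up 11.4%, against 12.8%. Without DAMTC replicate 1, or without DAMTC replicate 2, only 2 of the F-box and SCF core genes fell. Over all tested genes 803 and 822 fell in these fits, against 1378 with all arrays. The median log2 difference was 0.13 over the 44 genes and -0.04 over all tested genes, with differences from -3.01 for FBXW10B to 2.29 for FBXO33. Arrays of the groups did not overlap for 25 of the 44 genes (56.8%, where 41.9% of all tested genes did not), with DAMTC higher for 16 (20.2% of all tested genes) and lower for 9 (21.7% of all). Of the 44 genes, 11 both changed and differed at least 2-fold, where 21.3% of all tested genes did. These shares are descriptions of genes chosen by name, and whether they stand apart from other genes was not tested. FBXO43 passed the detection filter through its control arrays alone, so it could be kept only because it was brighter there. FBXW10B was detected on 3 control arrays and 1 DAMTC array, and FBXL14 on 1 control array and 3 DAMTC arrays. Each reached the filter only with the group where it was brighter, so the directions of these calls are not free of the filter. The split of rises and falls depended on how arrays were scaled. It was 8 higher and 9 lower with arrays scaled to a common median, and 8 higher and 7 lower with the deposited background-subtracted values. Under these scalings the median of all tested genes moved to -0.26 and -0.19, and 29.5% and 36.1% of all changed genes were higher, against 48.7%.

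**Figure D1:**
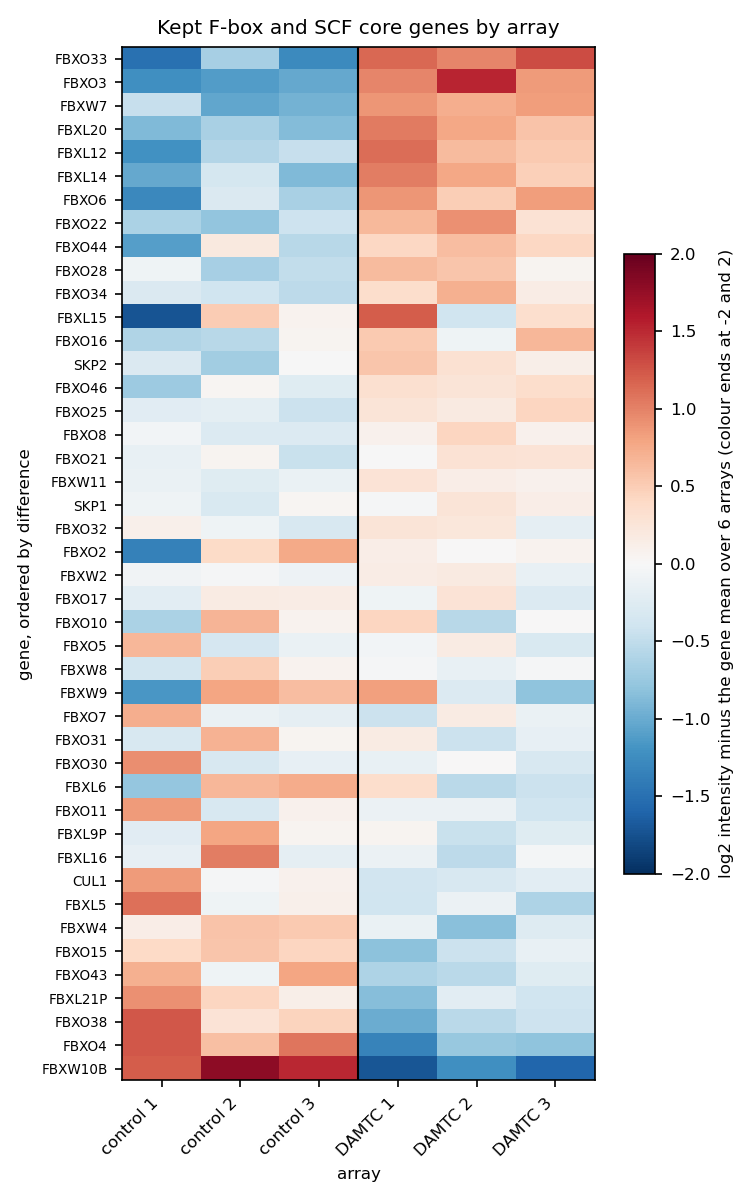
Rows are the 44 tested genes, ordered by their difference, and columns are the 6 arrays. Colour is the log2 intensity minus the gene's mean over the 6 arrays. The upper rows, from FBXO33 to FBXO22, are below their mean on all control arrays and above it on all DAMTC arrays, and the lowest rows, FBXO38, FBXO4 and FBXW10B, show the opposite.

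The SCF core itself did not pass the threshold. SKP1, the adaptor that binds the F-box, read 11.57, 11.36 and 11.71 on control replicates 1 to 3 and 11.65, 11.92 and 11.80 on DAMTC replicates 1 to 3. These groups overlapped, with a difference of 0.24 ± 0.24 (SE, n = 3 per group) and a 95% interval of -0.29 to 0.78 (limma adjusted p = 0.500). CUL1, the scaffold, read 10.14, 9.26 and 9.36 on control replicates 1 to 3 and 8.90, 8.97 and 9.06 on DAMTC replicates 1 to 3. Every DAMTC array lay below every control array, control replicate 1 was the highest of the 6, and the difference of -0.61 ± 0.29 did not pass (95% interval -1.27 to 0.05, limma adjusted p = 0.164), nor did it without control replicate 1 (-0.33). With median scaling CUL1 differed by -0.92 and passed (adjusted p = 0.0402), in a fit where the median of all genes was -0.26.

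Among the WD40 class, FBXW7 rose and FBXW10B fell, and the other 5 tested genes did not pass. Of the 7 tested genes 14.3% rose and 14.3% fell, against 12.2% and 12.8% of all tested genes. FBXW7 reads phosphorylated degrons on cyclin E, MYC, NOTCH and MCL1 and is mutated in many cancers. Its brightest probe (ILMN_1754279) read 9.55, 8.97 and 9.07 on control replicates 1 to 3 and 10.90, 10.73 and 10.85 on DAMTC replicates 1 to 3. All DAMTC arrays were above all controls, a 3.10-fold rise (1.63 ± 0.25 on the log2 scale, limma adjusted p = 0.00246), or 0.95 as the mean of its probes (adjusted p = 0.0260). FBXW10B read 8.16, 8.74 and 8.45 on control replicates 1 to 3 and 5.24, 5.72 and 5.36 on DAMTC replicates 1 to 3, and was detected on only 1 of the DAMTC arrays. The fall (-3.01 ± 0.26, 8.07-fold, limma adjusted p = 2.73e-04) is set against DAMTC arrays near background, and its size depends on how background was treated. It was -1.45 without background correction, -2.31 with a larger offset and -3.90 in the deposited values, past the threshold each time. FBXW11, also called beta-TrCP2, which reads phosphorylated IκB and beta-catenin, differed by 0.33 ± 0.22 and did not pass (adjusted p = 0.319). FBXW4 was lower on every DAMTC array without passing (-0.82, adjusted p = 0.0637), and passed without control replicate 1 (-0.95, adjusted p = 0.0278), under median scaling (-1.14, adjusted p = 0.0194) and in the deposited values (-1.17, adjusted p = 0.0265). FBXW2, FBXW8 (a partner of the cullin CUL7) and FBXW9 differed by 0.12, -0.13 and -0.16.

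The leucine-rich repeat class held 3 rises and 1 fall among 10 tested genes. These were 30% and 10%, against 12.2% and 12.8% of all tested genes, and the shares were not tested. FBXL20, known in mouse neurons as Scrapper, a regulator of the synaptic protein RIM1, read 8.88, 9.12 and 8.89 on control replicates 1 to 3 and 10.80, 10.54 and 10.34 on DAMTC replicates 1 to 3. It rose 3.02-fold (1.60 ± 0.24, limma adjusted p = 0.00231), with no overlap of the groups. FBXL14, which marks the transcription factor SNAI1 for degradation, read 5.09, 5.75 and 5.22 on control replicates 1 to 3 and 7.13, 6.87 and 6.58 on DAMTC replicates 1 to 3. Only 1 control array detected it while all DAMTC arrays did, so the 2.84-fold rise (1.51 ± 0.28, adjusted p = 0.00562) is set against controls near background. Its size ran from 0.54 on the log2 scale without background correction to 2.05 in the deposited values, past the threshold in both. FBXL12, reported to act on calmodulin kinase I in lung epithelial cells, read 5.80, 6.42 and 6.55 on control replicates 1 to 3 and 8.12, 7.64 and 7.54 on DAMTC replicates 1 to 3. Its 2.85-fold rise (1.51 ± 0.30, adjusted p = 0.00712) separated the groups completely, and was 0.73 without background correction (adjusted p = 0.0179).

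SKP2, the F-box protein of the cell cycle inhibitor p27, read 8.24, 7.83 and 8.52 on control replicates 1 to 3 and 9.08, 8.84 and 8.65 on DAMTC replicates 1 to 3. The groups did not overlap, but the difference of 0.66 ± 0.27 did not pass (95% interval 0.04 to 1.28, limma adjusted p = 0.111). FBXL5, an iron-binding F-box protein that marks iron regulatory proteins for degradation, read 8.85, 7.67 and 7.86 on control replicates 1 to 3 and 7.34, 7.63 and 7.13 on DAMTC replicates 1 to 3. It too was lower on every DAMTC array, though DAMTC replicate 2 and control replicate 2 nearly met, and did not pass (-0.75 ± 0.35, 95% interval -1.54 to 0.03, adjusted p = 0.147; -0.39 without control replicate 1). With median scaling FBXL5 passed (-1.11, adjusted p = 0.0346). FBXL21P, which human annotation lists as a transcribed pseudogene and whose mouse counterpart acts on cryptochromes, read 7.39, 6.92 and 6.60 on control replicates 1 to 3 and 5.63, 6.28 and 6.09 on DAMTC replicates 1 to 3. Its fall of 0.97 ± 0.30 on the log2 scale (adjusted p = 0.0444) was lost without control replicate 1 (adjusted p = 0.0603), control replicate 2 (0.0786) and DAMTC replicates 1, 2 and 3 (0.158, 0.0727 and 0.111). The FBXL21P call was also lost with a larger offset (-0.70, adjusted p = 0.0625) and without background correction (-0.39, adjusted p = 0.101). The remaining FBXL genes, FBXL6, FBXL9P, FBXL15 and FBXL16, had overlapping groups and differences from -0.46 to 0.77.

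**Figure D2:**
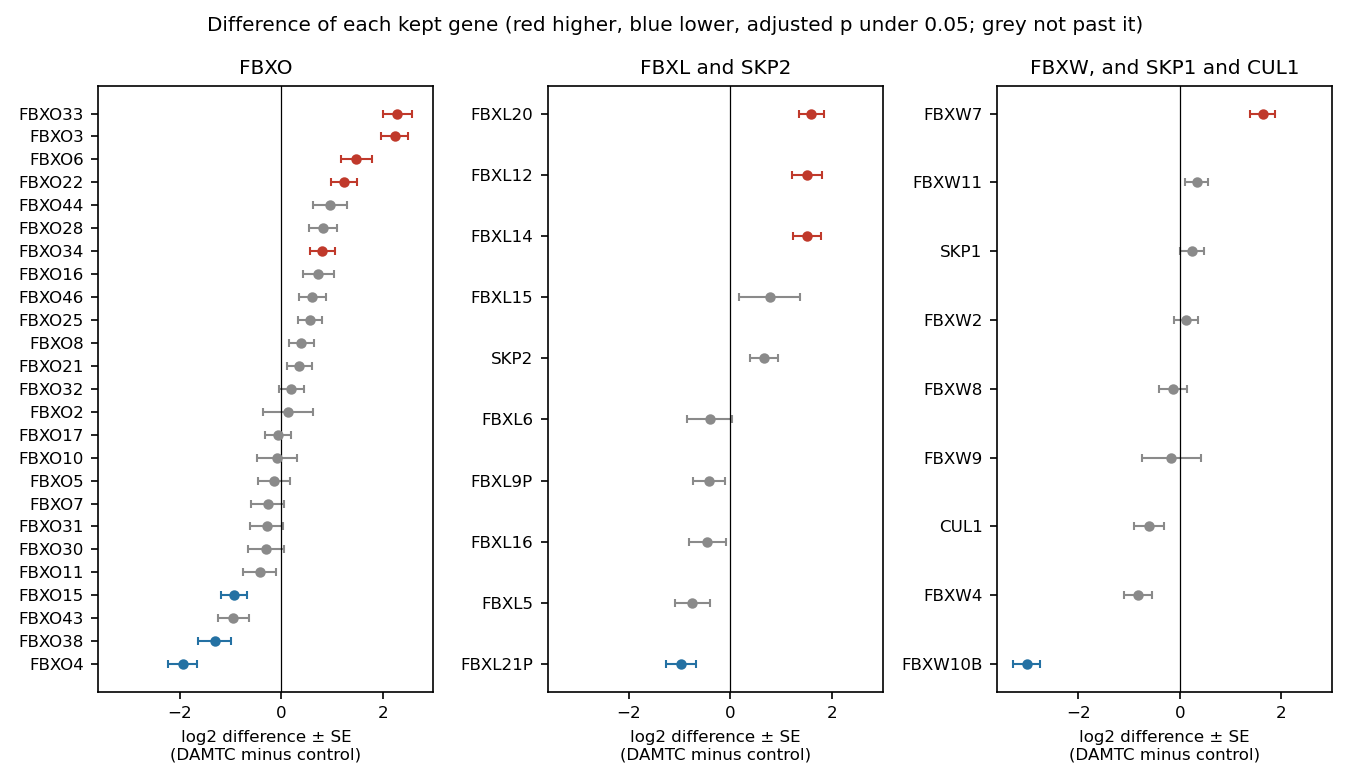
Points are log2 differences, DAMTC minus control, of the 44 tested genes by class, with whiskers of 1 SE (n = 3 arrays per group). The 9 rises in red run from 0.81 for FBXO34 to 2.29 for FBXO33 and the 5 falls in blue from -0.93 for FBXO15 to -3.01 for FBXW10B, while SKP1 and CUL1 are grey.

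The FBXO class was the most numerous, with 5 rises and 3 falls among 25 tested genes. These were 20% and 12%, against 12.2% and 12.8% of all tested genes. FBXO33, reported to direct ubiquitination of the RNA-binding protein YB-1, read 9.57, 10.39 and 9.79 on control replicates 1 to 3 and 12.22, 12.04 and 12.37 on DAMTC replicates 1 to 3. It rose 4.89-fold (2.29 ± 0.28, limma adjusted p = 9.66e-04), and its lowest DAMTC array lay well above its highest control array. FBXO3, reported to target another F-box protein, FBXL2, read 7.57, 7.68 and 7.77 on control replicates 1 to 3 and 9.77, 10.32 and 9.65 on DAMTC replicates 1 to 3. Its rise of 4.72-fold (2.24 ± 0.26, adjusted p = 7.90e-04) set all DAMTC arrays far above closely spaced controls, and was 1.40 as the mean of its probes (adjusted p = 0.00468). FBXO6, which binds N-glycans of misfolded glycoproteins, read 6.26, 7.27 and 6.90 on control replicates 1 to 3 and 8.43, 8.05 and 8.39 on DAMTC replicates 1 to 3. It rose 2.79-fold (1.48 ± 0.31, adjusted p = 0.00919) without overlap, or by 0.84 without background correction (adjusted p = 0.0136).

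FBXO6, FBXO44 and FBXO2 follow each other in the RefSeq gene order, with 0 genes between neighbours, and the 3 encode related sugar-binding domain proteins. FBXO44 was higher on every DAMTC array but did not pass (0.97 ± 0.34, adjusted p = 0.0682), and passed without control replicate 2 (1.30, adjusted p = 0.0169). FBXO2, the next gene, differed by 0.14 ± 0.49 (adjusted p = 0.866), with control replicate 1 at 5.40 and the other controls at 7.14 and 7.52. FBXO17, of the same sugar-binding group, differed by -0.06, and FBXO27 was detected on no array.

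FBXO22, which directs degradation of the histone demethylase KDM4A and of the heme-binding repressor BACH1, read 9.94, 9.78 and 10.16 on control replicates 1 to 3 and 11.23, 11.50 and 10.86 on DAMTC replicates 1 to 3 with its brightest probe. This was a 2.36-fold rise (1.24 ± 0.26, limma adjusted p = 0.010), lost without DAMTC replicate 2 (adjusted p = 0.0503). FBXO34 read 8.90, 8.79 and 8.66 on control replicates 1 to 3 and 9.54, 9.91 and 9.34 on DAMTC replicates 1 to 3, a 1.76-fold rise (0.81 ± 0.25, adjusted p = 0.0437). That call was lost without control replicates 2 (adjusted p = 0.0889) and 3 (0.123), without DAMTC replicates 1 (0.108), 2 (0.1665) and 3 (0.0761), and also with median scaling (0.50, adjusted p = 0.191) and with the deposited values (0.63, adjusted p = 0.155).

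FBXO4, an F-box protein of cyclin D1 and of the telomere protein TRF1, showed the largest fall of its class. It read 9.06, 8.41 and 8.89 on control replicates 1 to 3 and 6.48, 7.06 and 7.01 on DAMTC replicates 1 to 3, a 3.83-fold fall (-1.94 ± 0.28, limma adjusted p = 0.00200), or -1.20 without background correction (adjusted p = 0.00461). FBXO38, first described as a coactivator of the transcription factor KLF7, read 10.29, 9.31 and 9.48 on control replicates 1 to 3 and 8.05, 8.49 and 8.62 on DAMTC replicates 1 to 3. It fell 2.47-fold (-1.31 ± 0.32, adjusted p = 0.0189), with control replicate 1 the highest array, and the call was lost without DAMTC replicate 1 (0.0766) or 2 (0.0563). FBXO15, known in mouse as an embryonic stem cell gene controlled by Oct4, read 7.34, 7.49 and 7.38 on control replicates 1 to 3 and 6.13, 6.52 and 6.79 on DAMTC replicates 1 to 3. The groups did not overlap (-0.93 ± 0.26, adjusted p = 0.0295), but the call was lost without control replicates 2 (0.0729) and 3 (0.0743) or DAMTC replicates 1 (0.117) and 2 (0.0890).

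FBXO5, or EMI1, an inhibitor of the anaphase-promoting complex, read 8.96, 7.96 and 8.15 on control replicates 1 to 3 and 8.24, 8.46 and 7.98 on DAMTC replicates 1 to 3. These groups overlapped and the difference was -0.13 ± 0.32 (95% interval -0.85 to 0.59, limma adjusted p = 0.797). FBXO32, the muscle atrophy ligase atrogin-1, read 9.53, 9.34 and 9.11 on control replicates 1 to 3 and 9.68, 9.65 and 9.25 on DAMTC replicates 1 to 3. The spread between arrays was again wider than the difference of 0.20 ± 0.25 (95% interval -0.37 to 0.77, adjusted p = 0.609). FBXO28 and FBXO43 came close to the threshold. FBXO28 was higher on every DAMTC array (0.83, adjusted p = 0.0562) and passed without control replicate 1 (adjusted p = 0.0186) and as the mean of its probes (adjusted p = 0.0398). FBXO43, an APC inhibitor of meiosis, was detected on all controls and on no DAMTC array, and was at least 1.42-fold lower (adjusted p = 0.0503; 0.0174 without control replicate 2). It also passed under median scaling (0.0393) and in the deposited values (0.0433), where the median of all tested genes was -0.26 and -0.19. FBXO43 did not pass with a larger offset (-0.53, adjusted p = 0.109) or without background correction (-0.32, adjusted p = 0.128). It was kept through its control arrays alone and so could only count as a fall. For such bounds the dim arrays were set to their smallest detected signal, or to the probe's own value where that was larger.

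The remaining FBXO genes lay between -0.42 for FBXO11, which acts on BCL6, and 0.73 for FBXO16. Among them FBXO46, FBXO25 and FBXO8 were higher on every DAMTC array without passing (0.62, 0.57 and 0.40). FBXO7, which takes part in mitophagy and is mutated in a familial parkinsonism, differed by -0.27 and FBXO31, another F-box protein of cyclin D1, by -0.29. FBXO10, FBXO21 and FBXO30 differed by -0.08, 0.36 and -0.30. The genes too dim to test were FBXL4, FBXL7, FBXL8, FBXL13, FBXL18, FBXL22, FBXO24, FBXO27, FBXO36, FBXO39, FBXO40, FBXO45, FBXO47, FBXO48, FBXW12 and the divergent transcript FBXO3-DT, which no array detected, and FBXO42, which 2 control arrays detected.

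**Figure D3:**
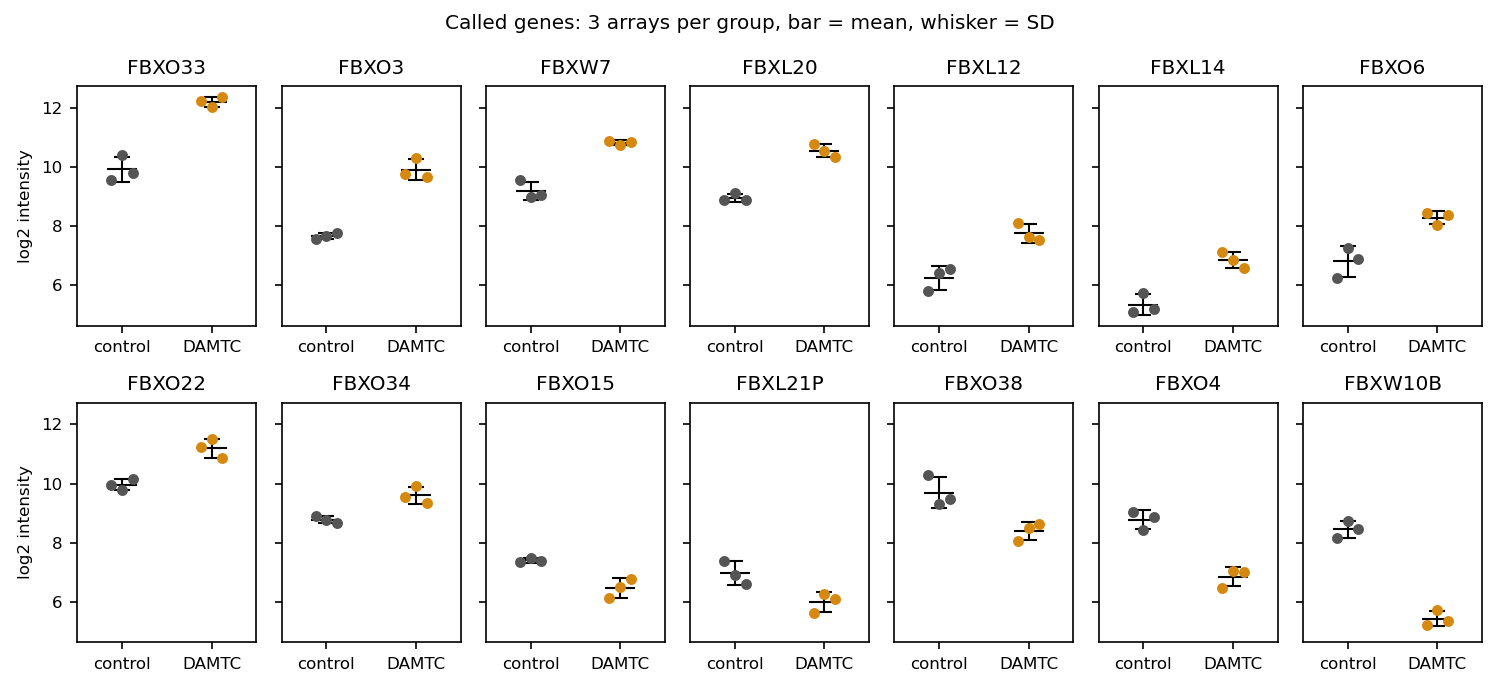
Each panel shows 1 of the 14 changed genes, with grey points for the 3 control arrays, orange points for the 3 DAMTC arrays, a bar at the group mean and whiskers of 1 SD. In every panel the groups are apart, widely for FBXW10B (8.16 to 8.74 against 5.24 to 5.72) and narrowly for FBXL21P (6.60 to 7.39 against 5.63 to 6.28).

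Several genes carry more than 1 probe, and these did not always move together. Of the 44 genes, 15 had further kept probes, 17 in all, of which 14 had the sign of the gene's brightest probe and 3 the opposite one. The platform annotation assigns both FBXO38 probes to 1 transcript, as it does both FBXO4 probes, and each pair fell alike (-1.31 and -1.38 for FBXO38, -1.94 and -1.59 for FBXO4). The 4 FBXO3 probes were all higher on every DAMTC array, by 2.24, 1.30, 1.24 and 0.82, the last without passing (limma over all kept probes, adjusted p = 0.0927).

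FBXO22 was the exception with opposite calls. Its further probe (ILMN_1701869), which the annotation assigns to another transcript, read 9.59, 8.28 and 8.65 on control replicates 1 to 3 and 6.98, 7.82 and 6.78 on DAMTC replicates 1 to 3. That probe fell (-1.65 ± 0.40, adjusted p = 0.0180 in the fit over all kept probes) while the brightest probe (ILMN_1786469) rose. The shift between the pair was tested in a limma fit of probe differences over all 2983 further probes of all genes, a comparison added after seeing the data, in which 11.3% passed. For FBXO22 the shift was 2.89 ± 0.34 on the log2 scale (adjusted p = 0.00329). With the 2 probes averaged, FBXO22 differed by -0.21 (adjusted p = 0.668).

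FBXW7 had a second kept probe (ILMN_1668634), annotated to the same transcript, which read 6.19, 6.22 and 5.36 on control replicates 1 to 3 and 6.21, 6.03 and 6.32 on DAMTC replicates 1 to 3. That probe did not pass (0.27 ± 0.30, adjusted p = 0.565 over all kept probes), and its shift against the brightest probe was 1.36 ± 0.26 (adjusted p = 0.0156). The rise of FBXW7 therefore rests on 1 probe, while 2 further FBXW7 probes were detected on no array. In the same fit 2 of the 3 further FBXO3 probes shifted against the brightest one (0.99 and 1.41, adjusted p = 0.0467 and 0.0323). The annotation assigns these 2 probes to another transcript than the brightest FBXO3 probe, and likewise the further FBXO21 probe to another than the brightest FBXO21 probe. Neither the further FBXO21 probe (its own difference 1.04, adjusted p = 0.0230 over all kept probes; shift -0.68, adjusted p = 0.0696) nor that of SKP2 (its own difference -0.46; shift 1.12, adjusted p = 0.0625) passed the test of the shift.

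**Figure D4:**
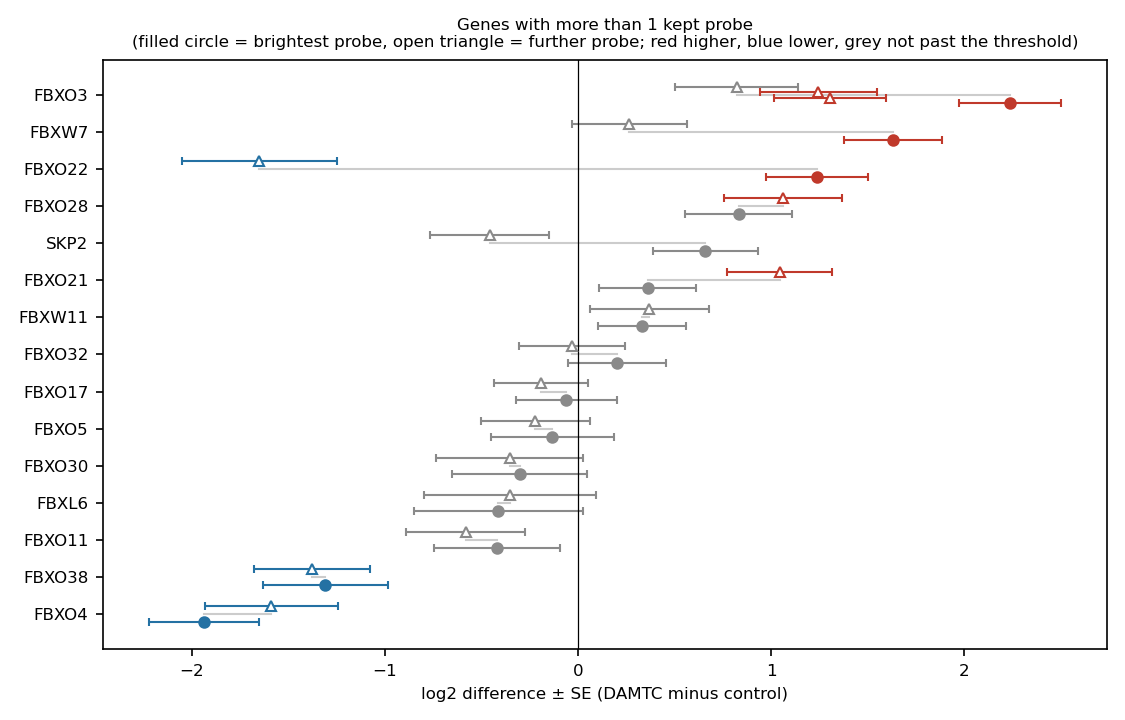
Log2 differences with whiskers of 1 SE (n = 3 arrays per group) are drawn for every kept probe of the 15 genes with more than 1, as filled circles for the brightest probe and open triangles for further ones. The FBXO22 pair lies on opposite sides of 0 (1.24 and -1.65), the FBXW7 pair is spread from 1.63 to 0.27, and the FBXO4 and FBXO38 pairs lie on the left.

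Start regions of 31 of the 44 genes were found in the RefSeq promoter table (GRCh38.p14), each 250 bases before to 50 bases after the annotated start. They are shown for the 2 largest rises and the 2 largest falls found there, and capitals mark CG dinucleotides. FBXO33 and FBXO3, which rose most among the 44 genes, were not found there and are not shown. Each region is written 5′ to 3′ on the strand of the gene.
FBXW7, chr4:152536043-152536342, minus strand: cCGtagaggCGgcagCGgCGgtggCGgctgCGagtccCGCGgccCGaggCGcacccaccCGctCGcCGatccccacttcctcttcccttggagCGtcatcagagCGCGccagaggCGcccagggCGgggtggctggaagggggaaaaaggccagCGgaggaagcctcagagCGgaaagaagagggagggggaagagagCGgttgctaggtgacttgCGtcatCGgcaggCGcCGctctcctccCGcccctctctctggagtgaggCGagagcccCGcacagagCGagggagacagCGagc
FBXL20, chr17:39402507-39402806, minus strand: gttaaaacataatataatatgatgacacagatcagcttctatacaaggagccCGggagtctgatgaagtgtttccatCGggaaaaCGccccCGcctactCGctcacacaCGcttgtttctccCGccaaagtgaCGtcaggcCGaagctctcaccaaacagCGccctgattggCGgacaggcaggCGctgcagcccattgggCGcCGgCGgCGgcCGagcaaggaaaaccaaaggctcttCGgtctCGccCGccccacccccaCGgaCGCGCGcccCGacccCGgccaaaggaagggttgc
FBXO4, chr5:41925031-41925330, plus strand: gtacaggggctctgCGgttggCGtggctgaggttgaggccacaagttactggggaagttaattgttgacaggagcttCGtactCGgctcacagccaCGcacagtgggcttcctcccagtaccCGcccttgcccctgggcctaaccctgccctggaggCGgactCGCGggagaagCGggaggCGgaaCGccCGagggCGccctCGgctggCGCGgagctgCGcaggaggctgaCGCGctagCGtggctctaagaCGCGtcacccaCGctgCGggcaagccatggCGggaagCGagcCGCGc
FBXW10B, chr17:15619655-15619954, minus strand: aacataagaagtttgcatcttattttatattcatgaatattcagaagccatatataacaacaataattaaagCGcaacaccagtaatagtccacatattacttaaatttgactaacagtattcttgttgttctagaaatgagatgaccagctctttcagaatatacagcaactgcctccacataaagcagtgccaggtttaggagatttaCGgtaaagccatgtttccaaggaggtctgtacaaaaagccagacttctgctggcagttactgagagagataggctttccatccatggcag
The first 3 held 30, 26 and 29 CG dinucleotides and the FBXW10B region 2, against a median of 29 over the 31 genes and 14 over all 27305 start regions in the table. FBXW10B was also the poorest of the 4 in G and C, with 37.3% against 70.0%, 60.3% and 68.0%.

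Short motifs were searched on both strands of these windows. The E-box CACGTG was in 3 of 31 (9.68%, against 7.43% of all start regions). The hypoxia response core ACGTG, which the E-box contains, was in 6 (19.4% against 21.6%). The FOXO motif TGTTTAC was in 1 (3.23% against 3.41%), and the E2F motifs TTTGGCGC and TTTCGCGC were in 0 (1.18% of all). None of the 6 rising genes in the table held an E-box, a hypoxia core or a FOXO motif. FBXO33, FBXO3 and FBXO22, which also rose, had no start region there and were not searched. The cyclic AMP response element TGACGTCA, added after these sequences were read, was in 2 windows, those of FBXL20, beginning 120 bases before the start, and of FBXO34 (1.98% of all start regions hold it). These matches describe letters in a window and were not tested against the changes.

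Over the 6 arrays, the genes whose log2 values followed FBXW10B most closely were FBXO4 (Pearson r = 0.947), FBXO15 (r = 0.933) and FBXO38 (r = 0.843), all of them genes that fell. The 6 points share the split into control and DAMTC arrays, so these values mostly restate that the 4 genes fell together.

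Unchanged genes of the lists below were singled out after their values were seen. Cofactors of the SCF ligase were taken from a list of 33 genes, of which 29 were tested, 3 rose, 2 fell and 24 did not pass (17.2% changed against 24.9% of all tested genes, with 12.2% higher and 12.8% lower, median 0.20 against -0.04). CDC34, the ubiquitin-conjugating enzyme that works with SCF, read 5.91, 6.41 and 6.37 on control replicates 1 to 3 and 8.07, 7.72 and 8.14 on DAMTC replicates 1 to 3. It rose 3.36-fold (1.75 ± 0.26, limma adjusted p = 0.00216), kept the call without each array in turn, and differed by 0.88 without background correction (adjusted p = 0.00582). CKS2, a paralog of the SKP2 cofactor CKS1B, rose 2.88-fold (1.53 ± 0.34, adjusted p = 0.0123; 0.0508 without DAMTC replicate 3), and its further probe read 1.99. CKS1B itself differed by 0.36 (adjusted p = 0.496). SUGT1, a SKP1-binding cochaperone, rose by 0.98 (adjusted p = 0.0349), with the call lost without each array but control replicate 1 (0.0725 to 0.128).

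In the NEDD8 branch, which activates cullins, NAE1, a subunit of the NEDD8-activating enzyme, fell by 0.91 on the log2 scale (limma adjusted p = 0.0480), and the call was lost without each array but control replicate 2 (0.0582 to 0.158). SENP8, a protease of NEDD8, fell by 0.99 (adjusted p = 0.0339), was detected on 1 DAMTC array, and lost its call without control replicate 2 (0.0861) or DAMTC replicate 1 (0.120), 2 (0.114) or 3 (0.0586). It was detected on all control arrays and reached the detection filter only with them. It differed by -0.32 without background correction, where it did not pass (0.116), and by -1.73 in the deposited values (0.0122). NEDD8 and the RING protein RBX1 differed by 0.12 and 0.07. The 9 tested subunits of the COP9 signalosome, which takes NEDD8 off cullins, differed by -0.56 (COPS7A) to 0.91 (COPS2), and none passed. Further probes of COPS2, COPS8 and GPS1 did pass (adjusted p = 0.0257, 0.0359 and 0.0264 over all kept probes). CAND1, which exchanges F-box modules on CUL1, was lower on every DAMTC array without passing (-0.98, adjusted p = 0.119; 0.0425 without control replicate 2 and 0.0343 under median scaling). Leaving out control replicate 1 gave 6 rises in this list, with COPS2, COPS4 and GLMN added (adjusted p = 0.0125, 0.0313 and 0.0320), and put COPS7A (0.0273) in place of NAE1 among the falls. Leaving out DAMTC replicate 3 gave 1 rise. Falls came to 1 without control replicate 3, and to 0 once any DAMTC array was left out. Over all tested genes, 34.3% changed without control replicate 1, 18.3% without control replicate 3 and 14.7% to 15.1% without a DAMTC array.

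Among F-box proteins under other names and the other cullins, 12 of 17 were tested, 0 rose, 3 fell and 9 did not pass. In this list 25% changed, close to the 24.9% of all tested genes (12.2% higher and 12.8% lower), with a median of -0.21 against -0.04. CUL9 fell 2.31-fold (-1.21 ± 0.27, limma adjusted p = 0.0121; 0.0502 and 0.0585 without DAMTC replicates 2 and 3; -0.46 and 0.0492 without background correction), and CUL4A, the scaffold of another ligase family, 1.89-fold (-0.92 ± 0.28, adjusted p = 0.0413). CUL4A lost its call without control replicate 3 (0.0713) and DAMTC replicates 1, 2 and 3 (0.127, 0.101 and 0.121). LMO7, which carries an F-box, was at least 1.44-fold lower and was detected on no DAMTC array (adjusted p = 0.0212; 0.0612, 0.0772, 0.0574 and 0.0838 without control replicate 2 and DAMTC replicates 1, 2 and 3; 0.0802 without background correction). It passed the detection filter through its control arrays alone, so it could only count as a fall. BTRC, the paralog of FBXW11, differed by 0.57 (adjusted p = 0.115) and CCNF, the first F-box protein described, by -0.07. KDM2B was higher on every DAMTC array without passing (0.77, adjusted p = 0.0573). It passed with a larger offset (0.0395) and without background correction (0.0315). The falls numbered 1 without DAMTC replicate 1 and 0 without DAMTC replicate 2 or 3. Over all tested genes 15%, 15.1% and 14.7% changed without DAMTC replicates 1, 2 and 3. The list held 1 rise and 2 falls with the larger offset and without background correction, and 3 rises and 4 falls with array weights. With array weights 45.1% of all tested genes changed.

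A last list held transcripts of 34 proteins known as substrates or partners of F-box proteins, of which 28 were tested, 7 rose, 2 fell and 19 did not pass (32.1% changed against 24.9% of all tested genes, with 12.2% higher and 12.8% lower, median 0.50 against -0.04). F-box proteins act on the protein of a substrate, which was not measured here. CRY2, a clock repressor degraded through FBXL proteins, read 6.09, 7.24 and 7.01 on control replicates 1 to 3 and 10.63, 9.41 and 10.02 on DAMTC replicates 1 to 3. It rose 9.46-fold (3.24 ± 0.40, limma adjusted p = 9.90e-04), or by 2.24 on the log2 scale without background correction (adjusted p = 0.00359). BCL6, the substrate of FBXO11, read 9.38, 9.60 and 9.88 on control replicates 1 to 3 and 12.11, 12.20 and 12.27 on DAMTC replicates 1 to 3, a 5.94-fold rise (2.57 ± 0.24, adjusted p = 3.66e-04) with narrow groups.

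Of the SKP2 substrates, CDKN1C (p57) rose at least 3.21-fold from controls in which no array detected it (limma adjusted p = 0.00305), FOXO1 rose 2.36-fold (adjusted p = 0.0235) and CDT1 2.22-fold (adjusted p = 0.0431). CDKN1C was kept through its DAMTC arrays alone and so could only count as a rise. Its log2 difference was 1.93, with 0.71 without background correction, 1.26 with a larger offset and 2.61 in the deposited values, past the threshold each time. CDKN1B (p27), which was singled out after its values were seen, fell 1.94-fold (adjusted p = 0.0350), and its further probe read -0.43 (adjusted p = 0.278 over all kept probes). Of the FBXW7 substrates, NOTCH1 rose 2.66-fold (adjusted p = 0.0265) and CCNE1, cyclin E1, 2.64-fold (adjusted p = 0.0201). MYC was lower on every DAMTC array without passing (-0.79, adjusted p = 0.0972; 0.0492 without control replicate 2 and 0.0446 under median scaling), and MCL1 differed by 0.78 (adjusted p = 0.225), while its further probe read 1.95 (adjusted p = 0.0132 over all kept probes). CDC25A, a beta-TrCP substrate, was at least 1.77-fold lower and was detected on no DAMTC array (adjusted p = 0.0368; 0.103 without background correction). It was kept through its control arrays alone and so could only count as a fall. Its log2 difference was -1.16, or -1.83 in the deposited values. CCND1, the cyclin D1 substrate of FBXO4 and FBXO31, differed by -0.17 (adjusted p = 0.750).

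CRY2, BCL6 and CDKN1C kept their calls without each array in turn. NOTCH1 lost its call without control replicate 3 and DAMTC replicates 1 and 3 (adjusted p = 0.0744, 0.0937 and 0.0862 with limma), and CCNE1 without DAMTC replicates 1, 2 and 3 (0.0742, 0.0641 and 0.0572). FOXO1 lost it without control replicate 3 and each DAMTC array (0.0541 to 0.0892), CDT1 without replicates 1 and 2 of either group (0.0679 to 0.151), CDC25A without each array but control replicate 2 (0.0549 to 0.117), and CDKN1B without each array but control replicate 1 (0.0609 to 0.137). Only 3 transcripts of the list rose when DAMTC replicate 1 was left out, and 4 when DAMTC replicate 3 was. Over all tested genes 15% and 14.7% changed in these fits, and 34.3% without control replicate 1, against 24.9% with all arrays. In the absence of control replicate 1 there were 9 rises, with CRY1, MCL1 and NOTCH2 added (adjusted p = 0.00155, 0.0466 and 0.0322) and CDT1 lost. There were 3 falls in that case, with SREBF1 and KDM4A added (0.0138 and 0.0448) and CDC25A lost, and 0 when control replicate 3 or any DAMTC array was dropped. KDM4A was detected on no DAMTC array and kept through its control arrays alone, so it could only count as a fall. With all arrays and no background correction KDM4A differed by -0.25 and did not pass (adjusted p = 0.165). Median scaling gave 4 rises and 5 falls, and the deposited values gave 4 rises and 3 falls. Over all tested genes 28.2% and 26.1% changed in these fits, and 29.5% and 36.1% of the changed genes were higher.

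**Figure D5:**
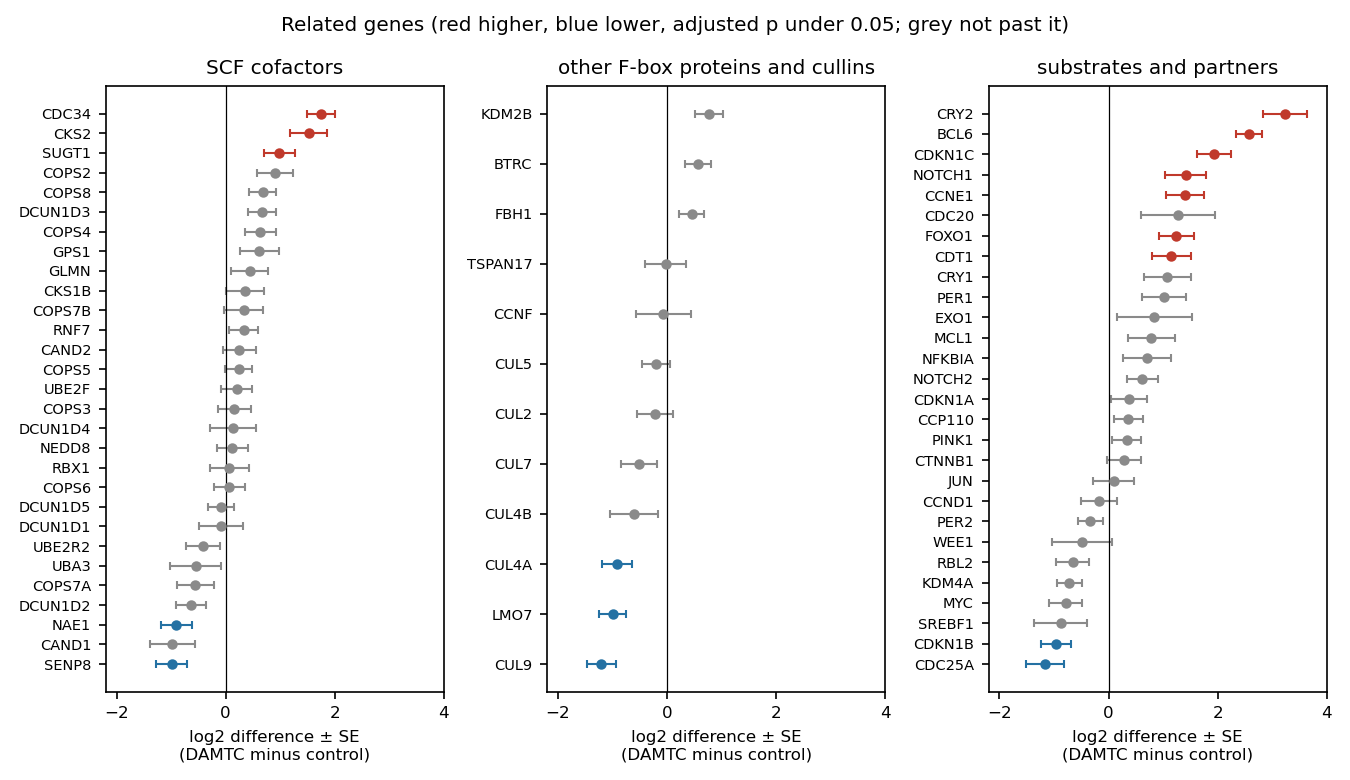
Points are log2 differences, DAMTC minus control, with whiskers of 1 SE (n = 3 arrays per group), for 29 SCF cofactors, 12 other F-box proteins and cullins and 28 substrates and partners. CDC34 (1.75), CRY2 (3.24) and BCL6 (2.57) stand at the top of their panels, and the middle panel has 3 falls and 0 rises.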

How the data were processed

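RNA of 3 control and 3 DAMTC arrays was analysed. Per the file headers, the deposited table holds for each probe and array an average bead intensity, a number of beads as a count (25 to 63 per kept F-box probe), a bead standard error on the scale of the intensities, and a detection p-value, with neither background subtraction nor scaling. The submitters' processing notes name BeadStudio. The series matrix of the deposited data holds background-subtracted, scaled intensity values and served as an alternative.

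Background was removed with limma's nec (offset 16), using the detection p-values, and arrays were quantile normalized before log2 was taken (limma 3.58.1, R 4.3.3). Probes needed detection p under 0.05 on 3 of 6 arrays and a single annotated symbol. The probe of highest mean stood for its gene in lmFit and eBayes over 10779 genes, with Benjamini-Hochberg adjustment. Only the limma fit was tested on simulated data, drawn around the normalized values of the kept genes. Background correction, scaling, the detection filter and the choice of probe were not tested in that way. Every changed F-box gene was to be named, with SKP1, SKP2, CUL1, FBXW7, FBXO5, FBXL5 and FBXO32 in any case, and up to 8 changed genes per related list. Members and lists were chosen with earlier results of these data known. A planned protein motif search was not run. The number of arrays limits the precision.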

Additional observations from a re-analysis of the deposited data

How the results depend on the processing

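Of the 14 changed F-box genes, 9 stayed past the threshold in every alternative that tested them: FBXO33, FBXO3, FBXW7, FBXL20, FBXL12, FBXL14, FBXO6, FBXO4 and FBXW10B. FBXL14 and FBXW10B were not tested when detection on all 6 arrays was required. FBXO22 reversed to -0.21 with the mean of its probes. Falls numbered 9 with median scaling, 8 with array weights (with 14 rises and 4860 genes changed in all), 3 with an added 2-fold minimum and 2 at adjusted p under 0.01 (1277 in all). The members' median was -0.194 with median scaling, -0.038 with the deposited values and -0.03 over every kept probe. Same-numbered arrays deviated in opposite directions (correlations -0.457 to -0.178) and 0 of 6 samples correlated best with their own number. With 3 arrays per group, each centred on its group mean, these correlations depend on each other and cannot decide whether the numbers pair the samples. Nothing in the labels says that they do. With the replicate number as a block 7 rose, 2 fell and 1594 genes changed in all. Leaving out 1 array gave 7 to 10 rises, 2 to 5 falls, a median of 0.092 to 0.212 and 1581 to 3694 changed genes. Setting values to each array's lowest detected signal, chosen after seeing the data, kept 9 rises and 5 falls. The cause of these shifts was not tested. The folds of genes near background are uncertain in size and moved with the background correction, as given beside FBXL14 and FBXW10B.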
